A study of Mus musculus with 12 samples.

Results

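The genes described here encode the Cdk7 kinase complex and the core of TFIIH, the general transcription factor that carries this kinase. They were taken as the Ensembl entries of the deposited counts whose GRCm38 symbol is Cdk7, Ccnh, Mnat1, Ercc2, Ercc3, Gtf2h1, Gtf2h2, Gtf2h3, Gtf2h4 or Gtf2h5. All 10 were found among 53379 listed genes, and all 10 passed the filter on low counts, which left 16554 genes for testing. They fall into 3 kinase complex genes and 7 core genes.

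TFIIH joins RNA polymerase II at promoters, where its DNA translocase Ercc3 opens the double strand and its kinase Cdk7 phosphorylates the tail of the polymerase so that it can leave the start site. Cdk7 works as a trimer with its cyclin, Ccnh, and with Mnat1, which stabilises the trimer and ties it to the core through the helicase Ercc2. The same trimer, away from TFIIH, activates the cyclin-dependent kinases of the cell cycle, and the core without the kinase opens DNA around lesions in nucleotide excision repair. In fat, Cdk7 has also been studied as a kinase of nuclear receptors such as Pparg, the regulator of adipocyte identity.

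RNA came from perigonadal white adipose tissue, a visceral fat pad, of C57BL/6 mice aged 9 weeks that were killed at zeitgeber time 9, that is 9 h after lights on. The 4 groups were Cdk7 knockout mice given CL for 7 days (ko CL), knockout mice given saline for 7 days (ko saline), control littermates given CL for 7 days (wt CL) and control littermates given saline for 7 days (wt saline). The knockout is described as adipose-specific, with its Cre driver, its deleted exons and the alleles of the littermates not given in the sources used here. CL is named only by this abbreviation, which in adipose research usually stands for a β3-adrenergic agonist that stimulates lipolysis. Each group had 3 libraries, and each library pooled equal RNA from 2 mice, so p-values here reflect only how such pools vary. The titles of the samples give genotype and treatment; a separate genotype entry follows the treatment and contradicts 6 of the 12 titles, and the titles were used.

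The 12 libraries held 21892817 to 27985019 gene counts. The labelled tissue was checked against adipocyte markers, all 20 of which passed the filter. Their summed level was 21780 to 31900 CPM (counts brought to 1 common library size with TMM factors) in ko CL, 38040 to 40750 in ko saline, 71160 to 76720 in wt CL and 62720 to 67490 in wt saline; 19 of 20 were lower in ko CL than in wt CL and 11 of 20 lower in ko saline than in wt saline, with none higher. Macrophage markers summed to 9959 to 13720 CPM in ko CL, 1984 to 2076 in ko saline, 1114 to 1323 in wt CL and 2071 to 2156 in wt saline; 17 of 20 were higher and 2 lower in ko CL than in wt CL, and none passed between the saline groups. Markers of ciliated epithelium, which lines the reproductive tract beside this fat pad, summed to 53.7 to 74.2 CPM in ko CL, 222.3 to 292.8 in ko saline, 40.0 to 46.6 in wt CL and 57.0 to 137.3 in wt saline. In whole tissue, fewer cells of a type and less RNA per cell cannot be told apart. The part that these cell types play in the differences given here was not tested. Some fits named below include a ciliated score, the centred mean log2 CPM of the ciliated markers. It was -1.413 to 0.212 in ko CL, 2.431 to 2.878 in ko saline, -1.879 to -1.599 in wt CL and -1.713 to 1.525 in wt saline. The genotypes did not overlap in this score under either treatment, nor did ko CL and ko saline. A call lost in such a fit therefore cannot be assigned to the ciliated cells rather than to the group.

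Promoter sequences are shown for Cdk7, the deleted gene, and for Gtf2h3 and Gtf2h5, the core genes whose levels differed most between the genotypes' CL responses. They come from the RefSeq promoter table of GRCm38.p6, whose windows run from 250 bases before to 50 bases after an annotated start, and only the bases ahead of the annotated starts are printed, 5′ to 3′ in the direction of the gene. Capitals mark matches, on either strand, to the TATA box (TATAAA), the CCAAT box (CCAAT), the GC box (GGGCGG), the ETS core (CCGGAA), the CRE half-site (TGACG) or the E-box (CACGTG).
Cdk7, chr13:100730943-100731192, minus strand: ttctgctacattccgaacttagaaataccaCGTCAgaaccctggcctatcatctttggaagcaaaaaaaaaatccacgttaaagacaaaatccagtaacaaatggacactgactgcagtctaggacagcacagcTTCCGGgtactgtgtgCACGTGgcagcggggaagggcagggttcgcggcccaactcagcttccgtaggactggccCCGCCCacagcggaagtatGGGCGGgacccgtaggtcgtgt
Gtf2h3, chr5:124578898-124579139, plus strand: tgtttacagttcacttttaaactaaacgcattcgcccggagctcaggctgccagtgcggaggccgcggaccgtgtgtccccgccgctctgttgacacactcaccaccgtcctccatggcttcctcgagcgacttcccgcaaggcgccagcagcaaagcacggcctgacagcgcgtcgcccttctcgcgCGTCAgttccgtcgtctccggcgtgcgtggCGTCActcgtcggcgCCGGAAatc
Gtf2h5, chr17:6079578-6079785, plus strand: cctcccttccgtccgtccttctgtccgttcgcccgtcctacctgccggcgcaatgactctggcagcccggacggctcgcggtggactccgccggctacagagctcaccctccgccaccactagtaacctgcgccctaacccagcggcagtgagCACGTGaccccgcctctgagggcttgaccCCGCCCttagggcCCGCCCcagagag

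The table held windows for 8 of the 10 genes, 9 windows in all, and none for Ccnh and Ercc3. Gtf2h5 had 2 windows that share 207 bases, so matches are counted here by gene, a gene with a match in either window counting once. None of the 8 genes had the TATA box, which 13.6% of all 32851 windows held. The GC box was found for 6 of 8 genes, against 35.7% of all windows, and the ETS core for 5 of 8, against 14.9%. The CRE half-site was found for 4 of 8 genes (20.8% of all windows), the E-box for 3 of 8 (7.2%) and the CCAAT box for 2 of 8 (37.4%). No matches overlapped or touched. The median GC content of the 9 windows was 65.3%, and that of all windows was 52.7%. These matches describe the letters of the windows, not bound sites.

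Cdk7, the catalytic subunit (ENSMUSG00000069089, minus strand of chromosome 13, bases 100702631 to 100730939 of GRCm38), was lower in the knockout tissue under both treatments and was not lost. Its level was 23.6, 19.5 and 18.1 CPM in ko CL and 32.2, 30.4 and 35.4 CPM in wt CL. Under saline it was 11, 11.7 and 11.5 CPM in ko and 29.7, 30.0 and 29.3 CPM in wt. The 4 groups did not overlap in this gene, and ko saline was the lowest in every library. With counts of 304 to 361 in the ko saline libraries and 788, 749 and 823 in the wt saline libraries, counting error was small. By the quasi-likelihood F test of edgeR, with Benjamini-Hochberg adjusted p over all tested genes, the log2 fold change was -0.68 ± 0.09 (SE) between ko CL and wt CL, adjusted p = 3.64e-05. Between ko saline and wt saline it was -1.38 ± 0.10, adjusted p = 6.21e-06. The level left was 62.4% of wt CL in ko CL and 38.5% of wt saline in ko saline. The counts cover the whole gene, so transcripts that lack only the deleted exons still count, and so do cells in which the gene was not deleted. When libraries were scaled by their size alone, which raised the median of all genes by 0.39 in this contrast, the log2 fold change between ko CL and wt CL was -0.29, adjusted p = 0.0134.

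**Figure D1:**
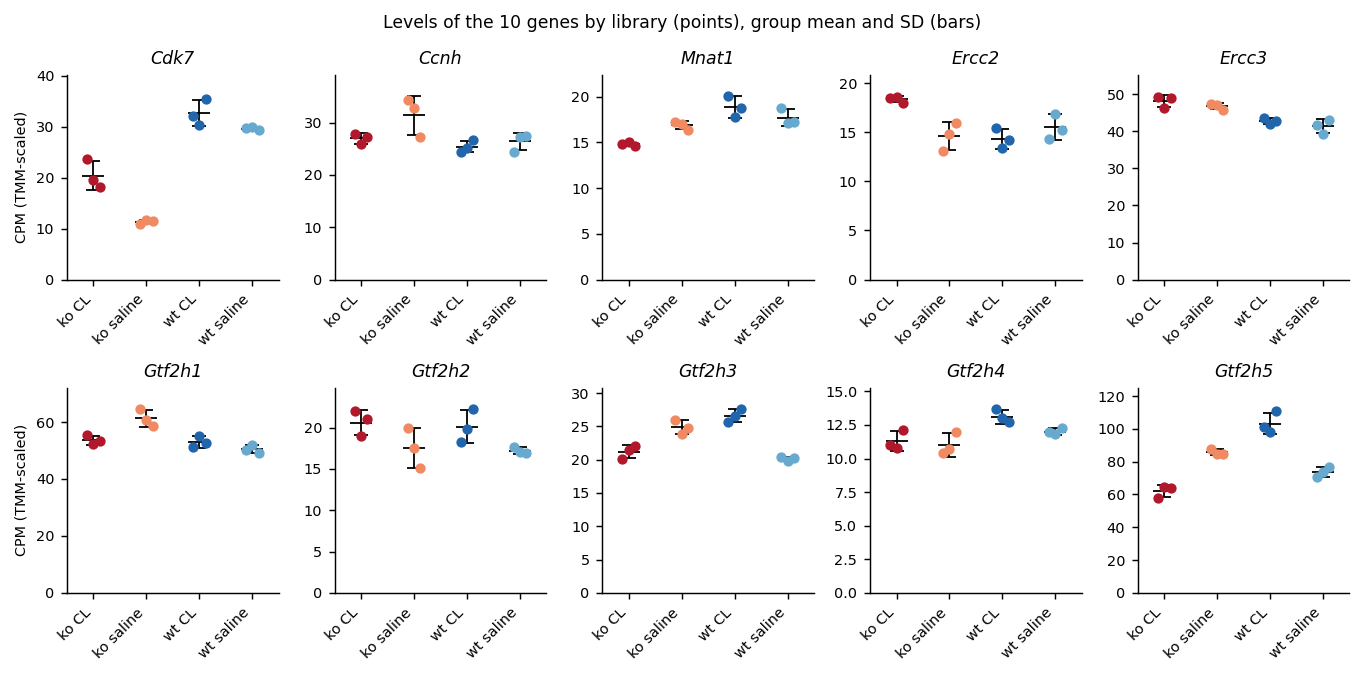
Levels of the 10 genes in CPM (TMM-scaled, linear axes from 0) in each of the 12 libraries as points, with the group mean and SD as bars, for ko CL, ko saline, wt CL and wt saline. Cdk7 lies lowest in ko saline (11 to 11.7 CPM), and Gtf2h5 lies lowest in ko CL (57.8 to 64.6 CPM) and highest in wt CL (98.3 to 111 CPM).

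CL moved Cdk7 upward in the knockout tissue. Its mean was 20.4 ± 2.9 CPM in ko CL and 11.4 ± 0.36 CPM in ko saline (SD, n = 3 each), a log2 fold change of 0.84 ± 0.10 and a ratio of 1.79 (adjusted p = 1.01e-05, edgeR's quasi-likelihood test). In control tissue it was 32.7 ± 2.6 CPM with CL and 29.6 ± 0.35 CPM with saline. Every wt CL library was above every wt saline library, yet the log2 fold change of 0.14 ± 0.09 did not pass (adjusted p = 0.251), and with library size alone its sign turned (-0.18, adjusted p = 0.115). The difference between the CL responses, ko minus wt, was 0.70 ± 0.13 (adjusted p = 0.000919). Cdk7 in ko CL stayed below wt saline, by a log2 fold change of -0.54 ± 0.09 (adjusted p = 0.000295). Beside the higher Cdk7 level in ko CL than in ko saline, 16 of 20 macrophage markers were higher and 3 lower, and 1 of 20 adipocyte markers was higher and 13 lower; their part in the Cdk7 difference was not tested.

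Ccnh, the cyclin that switches the kinase on (ENSMUSG00000021548, plus strand of chromosome 13, 85189408 to 85223469), did not fall with Cdk7. It was at 27.9, 25.9 and 27.2 CPM in ko CL and 24.4, 25.1 and 26.6 CPM in wt CL. Under saline it was at 34.3, 32.8 and 27.3 CPM in ko and 24.4, 27.3 and 27.4 CPM in wt. The ranges overlapped between genotypes under both treatments. The log2 fold changes were 0.09 ± 0.09 with CL (adjusted p = 0.407) and 0.25 ± 0.09 with saline (adjusted p = 0.0659), with a 95% interval of 0.07 to 0.44 for saline. With library size alone the CL value was 0.47 (adjusted p = 0.000303), where the median of all genes was 0.39. The saline value passed when ko saline 3 was left out (0.35, adjusted p = 0.0157), with upper-quartile scaling (0.29, adjusted p = 0.0352) and with library size alone (0.41, adjusted p = 0.00435). Within the knockout, Ccnh was lower with CL than with saline by a log2 fold change of -0.22 ± 0.09 (adjusted p = 0.0429), although the ranges overlapped. That call was lost, at adjusted p between 0.0519 and 0.0969, without any 1 of ko CL 2, ko saline 1 or 2, wt CL 1 or 2, or wt saline 2 or 3. It was also lost with the compared groups alone (adjusted p = 0.066) and with the ciliated score in the fit (-0.35, adjusted p = 0.106). Exons of Ccnh share 12 bases with those of Rasa1 on the opposite strand, 0.39% of the exon length.

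Mnat1, the assembly factor (ENSMUSG00000021103, plus strand of chromosome 12, 73123717 to 73273988), was lower in ko CL than in every other group. It was at 14.8, 15.0 and 14.6 CPM in ko CL and 20.1, 17.8 and 18.7 CPM in wt CL, against 17.2, 17.0 and 16.4 CPM in ko saline and 18.8, 17.1 and 17.2 CPM in wt saline. The 3 ko CL libraries lay below the other 9. The log2 fold change between ko CL and wt CL was -0.35 ± 0.07 (adjusted p = 0.00127), and between ko CL and wt saline it was -0.26 ± 0.07 (adjusted p = 0.0103). With library size alone the ko CL against wt CL value was 0.04 (adjusted p = 0.695), beside the median of all genes at 0.39. Between the saline groups the log2 fold change was -0.07 ± 0.07 (adjusted p = 0.575). Within the knockout, CL against saline gave -0.19 ± 0.07 (adjusted p = 0.0447). This call was lost without any 1 of ko CL 3, ko saline 1 or 2, wt CL 3, or wt saline 2 or 3, at adjusted p between 0.0524 and 0.0593. It was also lost with DESeq2 (adjusted p = 0.0577), without a filter (0.0891) and with the compared groups alone (0.0663), and with the ciliated score in the fit it was -0.05 (adjusted p = 0.822). The call against wt saline was lost with library size alone (-0.19, adjusted p = 0.0548).

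The balance of the 3 kinase transcripts was followed within each library as ratios of raw counts, which no scaling between libraries can move. Cdk7 to Ccnh was 0.846, 0.754 and 0.664 in ko CL and 1.32, 1.21 and 1.33 in wt CL. Under saline it was 0.322, 0.358 and 0.422 in ko and 1.21, 1.1 and 1.07 in wt. All 6 ko libraries lay below all 6 wt libraries. Cdk7 to Mnat1 was 1.59, 1.30 and 1.24 in ko CL against 1.60, 1.70 and 1.90 in wt CL, and 0.640, 0.690 and 0.704 in ko saline against 1.58, 1.76 and 1.70 in wt saline. Here ko CL reached into the wt range, its highest library at 1.59 beside a wt minimum of 1.58 in wt saline, while ko saline stayed apart. Ccnh to Mnat1 was 1.88, 1.73 and 1.86 in ko CL against 1.21, 1.41 and 1.42 in wt CL, and 1.99, 1.93 and 1.67 in ko saline against 1.30, 1.60 and 1.59 in wt saline. The last of the ratios was higher in all 6 ko libraries than in all 6 wt libraries.

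Over both treatments, the mean log2 ratio differed between ko and wt by -1.20 for Cdk7 to Ccnh, -0.82 for Cdk7 to Mnat1 and 0.38 for Ccnh to Mnat1. Each of these 3 differences had p = 0.005 in an exact two-sided permutation test with genotype permuted within treatment, the smallest p that its 400 arrangements can give, and also 0.005 after Benjamini-Hochberg adjustment over the 3. As Cdk7 is the deleted gene, the design itself lowers the ratios of Cdk7 in ko, so their p-values add no support. The ratios also depend on each other, since any pair of them gives the remaining one, so the tests are not separate evidence. Within CL the differences were -0.78, -0.34 and 0.44, and within saline they were -1.63, -1.31 and 0.32, where 3 libraries against 3 cannot give a p below 0.1. Per kilobase of exon, Cdk7 made up 29.8% to 35.2% of the summed level of the trio in ko CL, 17.3% to 20.8% in ko saline, 41.8% to 44.3% in wt CL and 39.6% to 41.3% in wt saline. On this per-length scale Cdk7 and Ccnh averaged 8.81 and 8.17 CPM per kilobase in wt CL and 8.0 and 8.50 in wt saline, whereas Mnat1 was at 3.51 and 3.28. The exon lengths are unions over annotated transcripts, so shares and levels of different genes on this scale also depend on which isoforms are annotated.

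**Figure D2:**
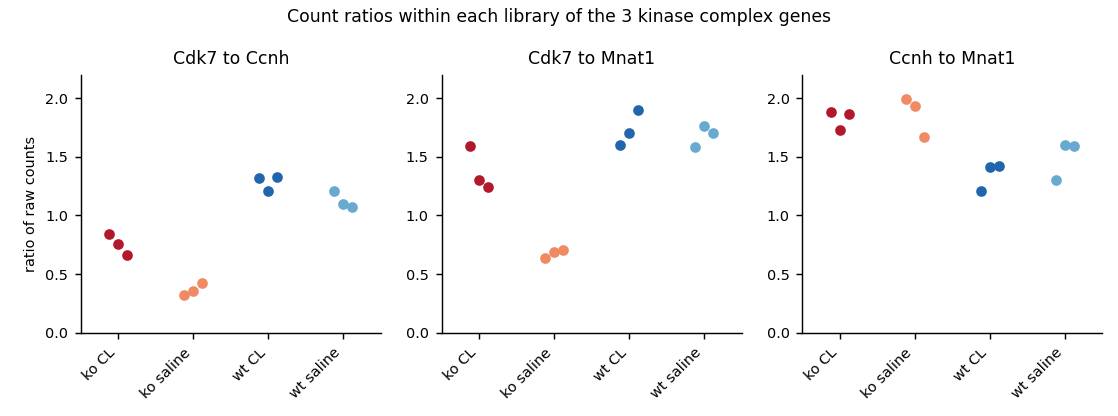
Ratios of raw counts within each library for Cdk7 to Ccnh, Cdk7 to Mnat1 and Ccnh to Mnat1 (linear axes from 0), each point 1 library, for ko CL, ko saline, wt CL and wt saline. Cdk7 to Ccnh lies at 0.322 to 0.846 in the ko libraries and 1.07 to 1.33 in the wt libraries, and Ccnh to Mnat1 at 1.67 to 1.99 in the ko libraries and 1.21 to 1.60 in the wt libraries.

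Among the core genes, the helicase and translocase were slightly higher in the knockout under CL. Ercc2, the helicase that opens DNA in repair and holds Mnat1 (ENSMUSG00000030400, plus strand of chromosome 7, 19382010 to 19395694), was at 18.5, 18.6 and 18.0 CPM in ko CL and 15.4, 13.4 and 14.2 CPM in wt CL. Under saline it was at 13.1, 14.8 and 15.9 CPM in ko and 14.3, 16.9 and 15.2 CPM in wt. The ko CL libraries lay above all the others, and the saline groups overlapped. The log2 fold changes were 0.36 ± 0.09 between ko CL and wt CL (adjusted p = 0.0058), 0.33 ± 0.09 between ko CL and ko saline (adjusted p = 0.00917) and -0.08 ± 0.09 between the saline groups (adjusted p = 0.63). Between ko CL and wt saline the value was 0.25 ± 0.09 (adjusted p = 0.0391). The call against ko saline was lost without ko saline 1 (0.22, adjusted p = 0.0683), with upper-quartile scaling (0.20, adjusted p = 0.0837) and with the ciliated score in the fit (0.19, adjusted p = 0.438). The call against wt saline was lost without any 1 of 7 libraries, namely the 3 of ko CL, ko saline 2 or 3, and wt saline 1 or 3, at adjusted p between 0.0583 and 0.215. That call was lost too with upper-quartile scaling (0.15, adjusted p = 0.181), with DESeq2 (adjusted p = 0.0519), without a filter (0.128) and with the compared groups alone (0.0616). Klc3 on the opposite strand shares 744 bases with exons of Ercc2, 17.8% of their length, and was at 0.416 CPM at most in any library.

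Ercc3, the DNA translocase that opens promoters (ENSMUSG00000024382, plus strand of chromosome 18, 32240300 to 32270151), was at 49.2, 46.3 and 49.1 CPM in ko CL and 43.7, 41.9 and 42.9 CPM in wt CL. Under saline it was at 47.4, 47.2 and 45.9 CPM in ko and 41.7, 39.4 and 43.1 CPM in wt. All 6 ko libraries were above all 6 wt libraries, by a small margin. The log2 fold changes were 0.17 ± 0.06 with CL (adjusted p = 0.0196) and 0.18 ± 0.06 with saline (adjusted p = 0.0491). Between ko CL and wt saline the log2 fold change was 0.22 ± 0.06 (adjusted p = 0.00502). The saline call was lost at adjusted p between 0.0566 and 0.189 without any 1 of the 12 libraries other than ko CL 1 or ko CL 2, and also without a filter (0.149) and with the compared groups alone (0.0601). The CL call was lost without ko CL 1, ko CL 3 or wt CL 2, at adjusted p between 0.0559 and 0.0774, and also with upper-quartile scaling (0.0526), without a filter (0.0578) and with the ciliated score (0.0742). Upper-quartile scaling likewise ended the call against wt saline (0.12, adjusted p = 0.0678). CL moved Ercc3 little in either genotype, with log2 fold changes of 0.04 ± 0.06 in ko (adjusted p = 0.547) and 0.05 ± 0.06 in wt (adjusted p = 0.528). The 95% intervals were -0.08 to 0.16 in ko and -0.07 to 0.17 in wt.

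Gtf2h5 was the member whose genotype difference changed most with treatment. It encodes the smallest core subunit, which steadies TFIIH and stimulates the translocase in repair, and is mutated in a human form of trichothiodystrophy (ENSMUSG00000034345, plus strand of chromosome 17, 6079786 to 6086517). It was at 57.8, 64.6 and 64.1 CPM in ko CL and 101, 98.3 and 111 CPM in wt CL. Under saline it was at 87.7, 84.7 and 84.9 CPM in ko and 70.6, 73.4 and 76.5 CPM in wt. None of the 4 groups overlapped, and the order was ko CL, wt saline, ko saline, wt CL from low to high. The log2 fold change between ko CL and wt CL was -0.73 ± 0.06 (adjusted p = 7.59e-07), leaving 60.2% of the wt CL level. Between the saline groups it was 0.22 ± 0.06 (adjusted p = 0.0363), a call that was lost, at adjusted p between 0.0678 and 0.109, without any 1 of the 6 saline libraries and at 0.067 without a filter. CL against saline gave -0.46 ± 0.06 in ko (adjusted p = 5.58e-05) and 0.49 ± 0.06 in wt (adjusted p = 9.15e-05). Taken as ko minus wt, the responses differed by -0.95 ± 0.09 (adjusted p = 4.12e-06). Gtf2h5 in ko CL was also below wt saline, by -0.24 ± 0.06 (adjusted p = 0.00708).

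Gtf2h3, the zinc-binding core subunit that pairs with Gtf2h2 (ENSMUSG00000029387, plus strand of chromosome 5, 124579140 to 124597680), had the same order of signs. It was at 20.1, 21.5 and 22 CPM in ko CL and 25.6, 26.5 and 27.6 CPM in wt CL, and at 26.0, 23.9 and 24.7 CPM in ko saline and 20.4, 19.8 and 20.2 CPM in wt saline. Within each treatment the genotypes did not overlap, while ko CL overlapped wt saline and ko saline overlapped wt CL. The log2 fold change was -0.33 ± 0.06 between ko CL and wt CL (adjusted p = 0.000776) and 0.31 ± 0.06 between the saline groups (adjusted p = 0.00886). With library size alone the ko CL against wt CL value turned to 0.06 (adjusted p = 0.45), where the median of all genes stood at 0.39. CL against saline gave -0.23 ± 0.06 in ko (adjusted p = 0.00785) and 0.40 ± 0.06 in wt (adjusted p = 0.000413). The wt value was 0.09 with library size alone (adjusted p = 0.284), where the median of all genes was -0.33. The ko response lay below the wt response by -0.63 ± 0.09 (adjusted p = 0.000117).

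Gtf2h1, the subunit that binds partners such as TFIIE and repair factors (ENSMUSG00000006599, plus strand of chromosome 7, 46796103 to 46823800), was highest in ko saline. It was at 55.4, 52.3 and 53.2 CPM in ko CL and 51.3, 55.2 and 52.7 CPM in wt CL, and at 64.7, 60.7 and 58.7 CPM in ko saline and 50.3, 51.8 and 49.3 CPM in wt saline. The 3 ko saline libraries lay above the other 9. The log2 fold change was 0.02 ± 0.06 between ko CL and wt CL (adjusted p = 0.833; 95% interval -0.11 to 0.14) and 0.28 ± 0.06 between the saline groups (adjusted p = 0.0078). With library size alone the ko CL against wt CL value was 0.40 (adjusted p = 9.01e-05), beside the median of all genes at 0.39. CL against saline gave -0.19 ± 0.06 in ko (adjusted p = 0.0118) and 0.07 ± 0.06 in wt (adjusted p = 0.354). These responses differed by -0.27 ± 0.08 (adjusted p = 0.0177); with library size alone the difference was -0.04 (adjusted p = 0.756), where the median of all genes was 0.20, and without a filter it was -0.25 (adjusted p = 0.0687).

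Gtf2h2, which stimulates the helicase Ercc2 (ENSMUSG00000021639, minus strand of chromosome 13, 100460218 to 100492579), passed in none of the comparisons. It averaged 20.6 ± 1.5 CPM in ko CL and 20.1 ± 2.0 in wt CL, and 17.5 ± 2.4 CPM in ko saline and 17.2 ± 0.41 in wt saline (SD, n = 3 each). The 95% interval of the log2 difference between genotypes was -0.19 to 0.27 with CL and -0.20 to 0.25 with saline. With library size alone the genotype difference with CL was 0.42 (adjusted p = 0.00322), where the median of all genes was 0.39. CL against saline gave 0.24 ± 0.10 in ko (adjusted p = 0.0718) and 0.23 ± 0.11 in wt (adjusted p = 0.116), and the ko value passed without ko saline 1 (0.31, adjusted p = 0.0281). Gtf2h4, which anchors Ercc3 to the core (ENSMUSG00000001524, minus strand of chromosome 17, 35667730 to 35673739), was at 11, 10.8 and 12.1 CPM in ko CL and 13.7, 13.0 and 12.7 CPM in wt CL. These did not overlap, but the log2 fold change of -0.22 ± 0.09 missed the threshold (adjusted p = 0.0502). It passed without ko CL 3 (adjusted p = 0.0273), without ko saline 1 (adjusted p = 0.0407) and without ko saline 3 (adjusted p = 0.0364), as it did with upper-quartile scaling (-0.26, adjusted p = 0.024) and over genes with a mean of at least 1 CPM (adjusted p = 0.0465). Under saline Gtf2h4 averaged 11 ± 0.89 CPM in ko and 12.0 ± 0.26 CPM in wt, with a log2 fold change of -0.13 ± 0.09 (adjusted p = 0.374).

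Counted together, 2 of the 10 genes rose and 4 fell in ko CL against wt CL, in a contrast that called 27.6% of all tested genes higher and 29.3% lower. Their median log2 fold change was -0.10, and that of all genes was 0. With library size alone 5 of the 10 were called higher and 2 lower, with the median of all genes at 0.39. In ko saline against wt saline 4 rose (Ercc3, Gtf2h1, Gtf2h3 and Gtf2h5) and Cdk7 fell, where 7.99% of all genes were called higher and 6.45% lower; the median was 0.10, beside -0.01 for all genes. Of these 4 rises none passed when the ciliated-epithelium score of each library entered the fit, which left 155 genes called in all (Gtf2h1 0.31, adjusted p = 0.262; Gtf2h3 0.31, adjusted p = 0.315; Gtf2h5 0.29, adjusted p = 0.329; Ercc3 0.16, adjusted p = 0.589). Cdk7 still passed in that fit (-1.44, adjusted p = 0.00203), and 14 of 22 ciliated markers were higher in ko saline and none lower. The score did not overlap between these groups, so this fit cannot separate it from genotype. The 5 calls became 3 without any 1 of ko saline 1 or 2, or wt saline 1, 2 or 3. The share of calls in ko CL against wt CL, 6 of 10, was near that of all genes.

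**Figure D3:**
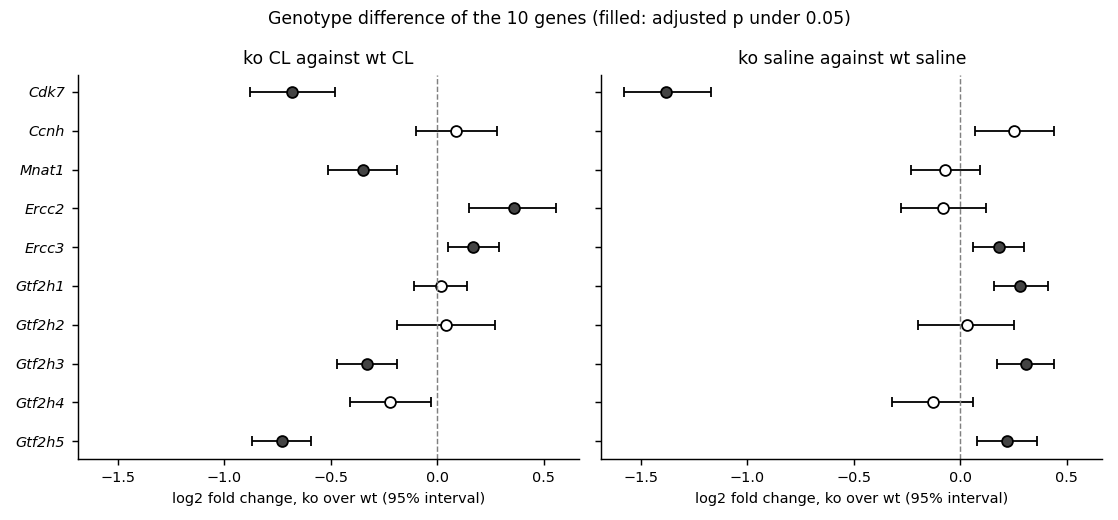
Log2 fold changes of ko over wt for the 10 genes (points) with 95% intervals (bars), with CL on the left and with saline on the right; filled points had an adjusted p under 0.05. Cdk7 was lower under both treatments (-0.68 with CL and -1.38 with saline), whereas Gtf2h5 and Gtf2h3 were lower with CL (-0.73 and -0.33) and higher with saline (0.22 and 0.31).

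CL against saline called 2 of the 10 genes higher (Cdk7 and Ercc2) and 5 lower (Ccnh, Mnat1, Gtf2h1, Gtf2h3 and Gtf2h5) in the knockout, where 27.2% of all genes were called higher and 27.5% lower. In that contrast 21 of 22 ciliated markers were lower, and with the ciliated score in the fit 1 gene (Cdk7, 0.90, adjusted p = 0.00163) was called higher and 1 (Gtf2h5) lower. Over all tested genes the calls in that fit fell as well, from 9043 to 4467, and the score did not overlap between these groups either. In control tissue CL called Gtf2h3 and Gtf2h5 higher and none lower, with 19.6% and 17.1% of all genes called higher and lower. The levels of 5 genes did not overlap between wt CL and wt saline, each of them higher with CL. Of these only Gtf2h3 and Gtf2h5 were called, and the share of all genes that separated in this way was not counted. With library size alone 1 gene was called higher and 5 lower in wt CL against wt saline, with the median of all genes at -0.33. Those called lower included Ccnh (-0.37, adjusted p = 0.00282) and Ercc2 (-0.42, adjusted p = 0.00222). The CL responses of the genotypes differed for 6 of the 10 genes: Cdk7 and Ercc2 (0.44 ± 0.13, adjusted p = 0.0171) responded more upward in ko, and Mnat1 (-0.28 ± 0.10, adjusted p = 0.0418), Gtf2h1, Gtf2h3 and Gtf2h5 more downward. Over all genes, 21.8% were called more upward and 23.6% more downward. The call for Mnat1 was lost at adjusted p between 0.054 and 0.105 without any 1 of the 12 libraries other than ko saline 3, wt CL 2 or wt saline 1. It was also lost with DESeq2 (adjusted p = 0.0783), without a filter (0.165), with library size alone (-0.05, adjusted p = 0.737) and with the ciliated score in the fit (-0.21, adjusted p = 0.206). The call for Ercc2 was lost with the ciliated score (0.36, adjusted p = 0.0862). Set against wt saline, ko CL had 2 of the 10 genes higher (Ercc2 and Ercc3) and 3 lower (Cdk7, Mnat1 and Gtf2h5), where 26.4% of all genes were called higher and 24.2% lower.

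**Figure D4:**
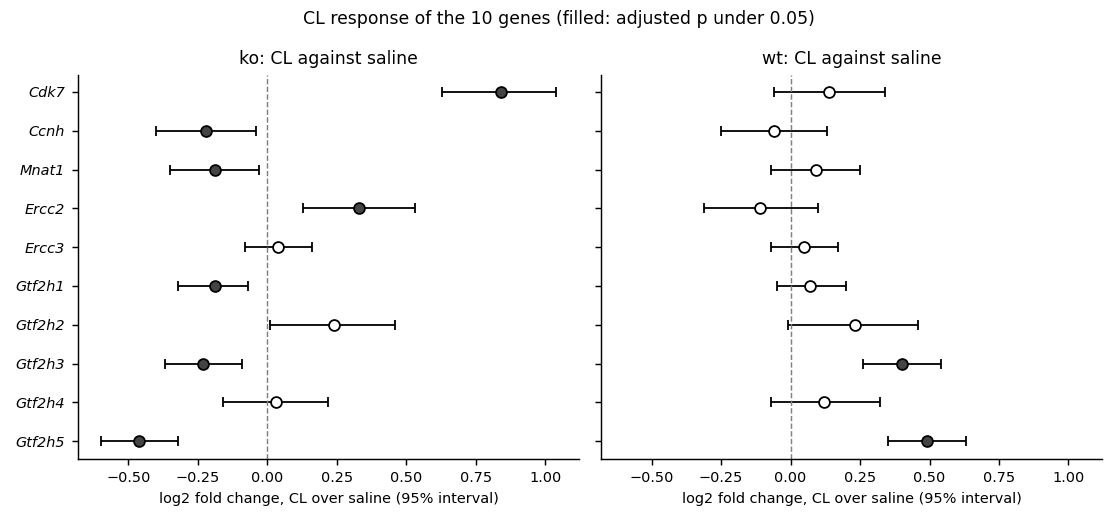
Log2 fold changes of CL over saline for the 10 genes (points) with 95% intervals (bars), in ko on the left and in wt on the right; filled points had an adjusted p under 0.05. Cdk7 moved upward in ko (0.84), and Gtf2h5 and Gtf2h3 moved downward in ko (-0.46 and -0.23) and upward in wt (0.49 and 0.40).

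The summed level of the 7 core genes was 233.0 to 239.4 CPM in ko CL and 268.1 to 282.8 CPM in wt CL, and 257.2 to 269.2 CPM in ko saline and 226.8 to 233.5 CPM in wt saline. The lower sum in ko CL rested on Gtf2h5: the other 6 core genes summed to 168.4 to 176.1 CPM in ko CL and 167.9 to 172.3 CPM in wt CL, ranges that overlapped. Under saline these 6 genes summed to 172.3 to 181.5 CPM in ko and 156.2 to 157 CPM in wt, without overlap. Per kilobase of exon, Gtf2h5, Gtf2h1 and Ercc3 were the most abundant of the 10 in every group, at 16.1, 18.0 and 17.0 CPM per kilobase in ko CL and 26.8, 17.8 and 15.1 in wt CL, and at 22.2, 20.6 and 16.5 in ko saline and 19.1, 16.9 and 14.6 in wt saline. The first 3 places in ko CL were close, with Gtf2h1 at 18.0 ± 0.54, Ercc3 at 17.0 ± 0.57 and Gtf2h5 at 16.1 ± 0.98 (SD, n = 3). Mnat1 was the least abundant per kilobase in ko CL (2.75 ± 0.03), whereas in ko saline Cdk7 (3.08 ± 0.10) and Mnat1 (3.13 ± 0.08) lay within their spread of each other. These places rest on the union of all annotated exons of a gene, so they also depend on which isoforms are annotated. Within groups the coefficient of variation of the 10 genes was 1.2% to 14.0%.

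Genes that work with TFIIH were followed through 3 lists, whose counts stand beside 27.6% of all genes called higher and 29.3% lower in ko CL against wt CL, and 7.99% higher and 6.45% lower in ko saline against wt saline. Of 25 nucleotide excision repair genes, 5 were higher and 7 lower in ko CL against wt CL, and 3 were higher and 1 lower in ko saline against wt saline. Their median log2 fold change was -0.08 with CL and 0.04 with saline, beside 0 and -0.01 for all genes. Ercc6, which starts transcription-coupled repair, was at 53.6, 38.8 and 42.0 CPM in ko CL and 22.7, 19.3 and 22.4 CPM in wt CL (log2 fold change 1.06 ± 0.12, adjusted p = 4.89e-06). Pcna, the replication clamp (1.11, adjusted p = 4.92e-06), and Lig1, a DNA ligase (0.80, adjusted p = 1.32e-05), were also higher there. Under saline Uvssa, which brings TFIIH to stalled polymerase, was higher in ko (0.51, adjusted p = 0.00086), as were Ercc5, a repair nuclease (0.20, adjusted p = 0.0357), and Cul4a, a ubiquitin ligase scaffold (0.20, adjusted p = 0.0221). Uvssa was at 31.8, 33.7 and 29.7 CPM in ko CL and 37.1, 38.2 and 34.7 CPM in wt CL, and at 57.5, 52.0 and 55.7 CPM in ko saline and 38.0, 36.7 and 41.3 CPM in wt saline. The genotype difference of Uvssa was -0.21 ± 0.07 with CL (adjusted p = 0.0264), and the responses to CL, ko minus wt, differed by -0.72 ± 0.10 (adjusted p = 9.54e-05).

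Of the TFIIE genes and the iron-sulfur assembly genes that mature Ercc2, 5 of the 6 listed were found in the annotation and tested; 1 was higher and 2 lower in ko CL against wt CL, and 1 was higher in ko saline against wt saline, with medians of -0.19 and 0.02. Gtf2e1, the large TFIIE subunit, was at 18.5, 20.5 and 16.4 CPM in ko CL and 27.7, 27.5 and 29.1 CPM in wt CL (-0.60 ± 0.10, adjusted p = 0.00017), and differed by 0.02 under saline (adjusted p = 0.905). Gtf2e2, the small subunit, was higher in ko saline (0.40 ± 0.09, adjusted p = 0.00992). The assembly genes Mms19 (0.41, adjusted p = 0.000363) and Ciao1 (-0.41, adjusted p = 5.05e-05) moved in opposite directions under CL. Ciao2b gave -0.19 with CL (adjusted p = 0.16) and -0.35 with saline (adjusted p = 0.0526), and Ciao1 gave 0.07 with saline (adjusted p = 0.451).

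Of 16 Cdk7 substrates and related kinases, 9 were higher and 2 lower in ko CL against wt CL, and 1 was higher and 2 lower in ko saline against wt saline, with medians of 0.32 and -0.06. Polr2a, the large subunit of RNA polymerase II whose tail Cdk7 phosphorylates, was the one higher under both. It was at 276, 229 and 246 CPM in ko CL and 148, 152 and 133 CPM in wt CL, and at 327, 306 and 310 CPM in ko saline and 162, 138 and 159 CPM in wt saline. No ko library overlapped a wt library, and the log2 fold changes were 0.79 ± 0.09 with CL (adjusted p = 5.87e-06) and 1.04 ± 0.09 with saline (adjusted p = 2.45e-05). The kinases Cdk20 (1.66, adjusted p = 6.43e-07), Cdk6 (1.55, adjusted p = 2.62e-06) and Cdk4 (0.62, adjusted p = 1.91e-06) were higher in ko CL than in wt CL. E2f1, a cell cycle transcription factor (-0.41, adjusted p = 0.0377), and Rara, a retinoic acid receptor (-0.58, adjusted p = 0.0127), were lower in ko saline than in wt saline. Both were higher in ko CL than in wt CL, E2f1 by 0.75 (adjusted p = 0.000113) and Rara by 0.42 (adjusted p = 0.0167). The responses to CL, ko minus wt, differed by 1.16 for E2f1 (adjusted p = 0.000117) and by 1.0 for Rara (adjusted p = 0.000824). Supt5, an elongation factor, gave 0.14 under saline (adjusted p = 0.124) and was higher in ko CL than in wt CL (0.20, adjusted p = 0.00732).

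Around Cdk7 on chromosome 13, 19 other genes within 1 Mb of its start were tested. In ko CL against wt CL 7 of them were higher and 3 lower, and in ko saline against wt saline 2 were higher and none lower, beside the same shares of all genes (27.6% higher and 29.3% lower with CL, 7.99% and 6.45% with saline). Every called neighbour is named, together with uncalled ones chosen after their values were seen. The widest differences with CL were in the Naip genes, which encode sensors of bacterial proteins in the inflammasome: Naip2 (2.89, adjusted p = 3e-08), Naip6 (2.41, adjusted p = 1.78e-08), Naip5 (2.39, adjusted p = 1.64e-07) and the pseudogene Naip3 (3.03, adjusted p = 2.91e-05) were higher. Naip2 averaged 27.5 CPM in ko CL and 3.71 CPM in wt CL. The Naip genes are close copies of each other, so the split of reads between them is uncertain, and in the same contrast 17 of 20 macrophage markers were higher; their part in these differences was not tested. Mccc2, a leucine breakdown enzyme gene, was lower with CL (-1.39, adjusted p = 4.45e-07), at 71.4 CPM in ko CL and 187 CPM in wt CL. The nearest gene, Mrps36, which starts 13.7 kb away, had a log2 fold change of -0.74 with CL (adjusted p = 0.000447) and -0.28 with saline (adjusted p = 0.194). Ccdc125, 61.2 kb away on the other side, gave -0.78 with CL (adjusted p = 4.6e-05) and -0.24 with saline (adjusted p = 0.157). Slc30a5, a zinc transporter gene 102.5 kb away, was higher under both treatments (0.20, adjusted p = 0.00596 with CL; 0.31, adjusted p = 0.00247 with saline). Ccnb1, the mitotic cyclin gene (0.61, adjusted p = 0.0186), and Cenph, a kinetochore gene (0.92, adjusted p = 0.022), were higher with CL and gave 0.35 and 0.18 with saline (adjusted p = 0.345 and 0.779). Rad17 and Ak6, which start about 80 kb away, gave -0.17 and -0.12 with CL (adjusted p = 0.172 and 0.31) and 0.09 and 0.22 with saline (adjusted p = 0.593 and 0.152). The tight junction genes Marveld2 (1.55, adjusted p = 0.0217) and Ocln (1.74, adjusted p = 0.0528) were at low levels, 1.08 and 1.97 CPM in ko saline and 0.364 and 0.582 CPM in wt saline. Gtf2h2, itself a core gene, lies 238.4 kb away and passed under neither.

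**Figure D5:**
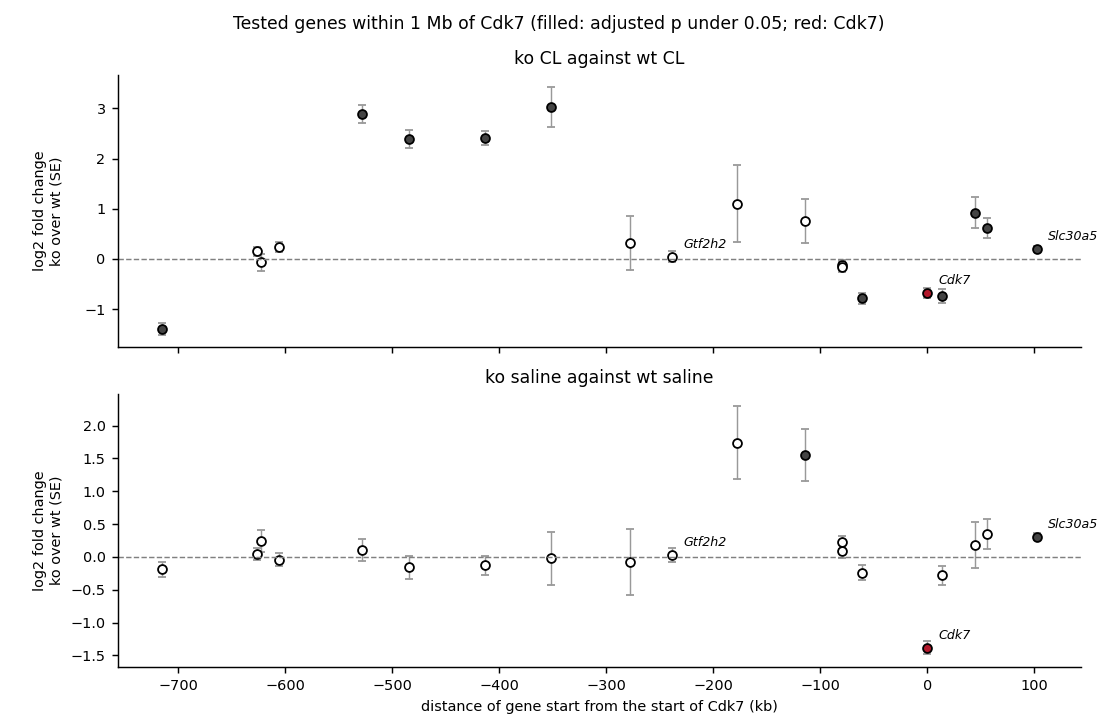
Log2 fold changes of ko over wt (points, SE as bars) of Cdk7 and the 19 tested genes within 1 Mb of it, against the distance of each gene's start from that of Cdk7 in kb, with CL above and with saline below; filled points had an adjusted p under 0.05. Under saline Cdk7 (-1.38) is the lone called gene below 0, and Slc30a5 lies above 0 in both panels (0.20 and 0.31).

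The genes whose levels ran closest to Cdk7 were sought among 10678 protein-coding genes with a mean of at least 5 CPM, by the root mean square difference of centred log2 CPM over the 12 libraries. Its median over these genes was 0.626. The smallest values belonged to Abcb8 (0.299), Pde4d (0.310), Aldh2 (0.316), Pygo1 (0.319) and Hnmt (0.322). Abcb8, a mitochondrial transporter gene, averaged 37.4 CPM in ko CL and 72.4 in wt CL, and 30.1 in ko saline and 49.9 in wt saline. The closest of the other complex genes was Gtf2h4 (0.527, place 1260), followed by Mnat1 (0.553, place 2122), and Ccnh stood at 0.715 (place 7964). None of the other complex genes was among those named as closest to Cdk7. As Cdk7 is the deleted gene, this distance favours genes that were lower in ko. It therefore cannot tell how the complex genes vary with Cdk7 apart from the deletion.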

How the data were processed

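The 12 deposited files give a raw count for each gene, produced by the authors using STAR, HTSeq and the GRCm38 build, per the submitters' processing notes; the file names state reverse-strand counting, with tool versions not given in the sources used here. HTSeq's summary lines, 12.5% to 17.2% of a library, were left out. Of 53379 identifiers, 53274 matched GENCODE M21. No pair of libraries within a group agreed within sampling noise (chi-square per degree of freedom 6.96 to 55.5).

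Counts were tested in R 4.3.3 with edgeR 4.0.16 (TMM scaling, filterByExpr with a minimum count of 10, quasi-likelihood test), with 1 mean per group over all 12 libraries, 8 residual degrees of freedom and Benjamini-Hochberg adjustment over 16554 genes, called at 0.05. A log2 fold change is given ± SE. The common biological coefficient of variation was 11.5%. Levels are CPM after TMM; exon lengths are unions over GENCODE M21 transcripts. Alternatives were other scalings and filters, DESeq2 1.42.0, a replicate block, a ciliated-epithelium score as a covariate, the compared groups alone and each library left out.

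The 10 genes, the lists and the marker lists were chosen with earlier results of these data known. Named genes of the 3 lists had the 4 smallest adjusted p in a genotype contrast; 1 gene that met this rule is not reported here. Of the 11 marker lists, 3 are given with the results. In ko CL against wt CL, the others had, higher and lower, 10 and 2 of 12 (lipid-associated macrophage), 4 and 0 of 12 (mesothelium), 1 and 13 of 14 (endothelium), 13 and 0 of 14 (fibroblast), 0 and 4 of 10 (smooth muscle), 4 and 1 of 12 (T and NK cell), 5 and 0 of 9 (B and plasma cell) and 5 and 1 of 8 (granulocyte and mast cell).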

Additional observations from a re-analysis of the deposited data

Results flagged for a closer look

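The CL response differed between the genotypes for 6 of the 10 genes, by the test of the difference itself (the quasi-likelihood F test of edgeR with Benjamini-Hochberg adjusted p, ko response minus wt response, log2). The difference was 0.70 for Cdk7, which rose with CL in ko and did not pass in wt. It was 0.44 for Ercc2, which likewise rose with CL in ko and did not pass in wt. It was -0.95 for Gtf2h5 and -0.63 for Gtf2h3, both of which fell with CL in ko and rose with CL in wt. It was -0.28 for Mnat1 and -0.27 for Gtf2h1, which fell with CL in ko and did not pass in wt. Of all tested genes, 21.8% differed upward and 23.6% downward in the same test. Groups of 3 libraries are too small for a check of single outlying libraries.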

How the results depend on the processing

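Cdk7 kept its direction and its side of the threshold in 124 of 125 alternative fits over the 6 comparisons; the exception was wt CL against wt saline with library size alone (-0.18, main value 0.14, neither called). The 3 count ratios kept their call in all 39 alternatives. The number of the 10 genes called moved by more than 1.5 times in ko saline against wt saline (5) to 3 without a filter, to 1 with the ciliated-epithelium score, and to between 3 and 5 with 1 library left out; in wt CL against wt saline (2) to 6 with library size alone; in ko CL against ko saline (7) to 2 with the ciliated score; and in ko CL against wt saline (5) to 3 with upper-quartile scaling. Leaving out a library left 4 to 7 calls in the other comparisons, and 2 in wt CL against wt saline. These totals take both directions together. With library size alone, ko CL against wt CL gave 5 higher and 2 lower, against 2 and 4 in the main fit. The difference of responses gave 3 and 2, against 2 and 4. For ko CL against wt saline the split was 4 and 2, against 2 and 3.

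Library size alone moved the median of all genes by up to 0.39, and split the calls over all genes 8667 higher and 2237 lower in ko CL against wt CL (4561 and 4847 with TMM), 3733 and 506 in ko saline against wt saline (1323 and 1068), 1329 and 8048 in wt CL against wt saline (3249 and 2836), 5137 and 3353 in ko CL against wt saline (4364 and 4009) and 5386 and 2267 for the difference of responses (3607 and 3903). In ko CL against ko saline upper-quartile scaling gave 3474 and 6092 and library size alone 3701 and 5475 (4497 and 4546 with TMM); in ko CL against wt saline upper-quartile scaling gave 3558 and 5034.

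Signs turned with library size alone in ko saline against wt saline for Mnat1 (0.09), Ercc2 (0.08) and Gtf2h4 (0.03); in ko CL against wt CL for Mnat1 (0.04), Gtf2h3 (0.06) and Gtf2h4 (0.16); in wt CL against wt saline for Mnat1 (-0.22), Ercc3 (-0.27), Gtf2h1 (-0.24), Gtf2h2 (-0.09) and Gtf2h4 (-0.19), of which the first 3 were called; in ko CL against ko saline for Ercc3 (-0.05) and Gtf2h4 (-0.06); and in the difference of responses for Ccnh (0.06), Ercc3 (0.22, called) and Gtf2h4 (0.14). With upper-quartile scaling they turned for Gtf2h1 (-0.02) and Gtf2h2 (0) in ko CL against wt CL, Ercc3 (-0.01) in wt CL against wt saline, Ercc3 (-0.09) and Gtf2h4 (-0.10) in ko CL against ko saline, and Gtf2h2 (-0.07) in the difference of responses. With the ciliated score they turned for Ercc2 (0.06, ko saline against wt saline), Gtf2h4 (-0.04, ko CL against ko saline) and Ercc3 (0, difference of responses), and Ercc3 in that difference was 0 with RLE scaling, 0 with DESeq2 and 0.01 without a filter. With 1 library left out, values near 0 also turned: Ercc2 (-0.14 to 0) and Gtf2h2 (-0.07 to 0.13) in ko saline against wt saline, Gtf2h1 (-0.01 to 0.04) and Gtf2h2 (-0.03 to 0.12) in ko CL against wt CL, Ercc3 (-0.01 to 0.04) and Gtf2h4 (-0.06 to 0.07) in ko CL against ko saline, and Ercc3 (-0.04 to 0.03) and Gtf2h2 (-0.10 to 0.10) in the difference of responses. The cause of these changes was not tested.

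Libraries of different groups were correlated on the deviations of log2 CPM from group means. Same-numbered pairs ran from -0.355 to 0.176 (median 0.0163), and differently numbered pairs from -0.416 to 0.366 (median 0.00413). Same-numbered pairs thus did not stand apart, but 3 libraries per group cannot exclude a pairing. With the number as a replicate block, Cdk7 gave -1.38 in ko saline against wt saline, and 5 calls among the other genes were lost: Ercc3 in ko saline against wt saline (adjusted p = 0.0684), Ccnh (0.0692) and Mnat1 (0.0534) in ko CL against ko saline, Ercc2 in ko CL against wt saline (0.0578) and Mnat1 in the difference of responses (0.0508).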
